A study of Mus musculus with 20 samples.

Results

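The genes described here encode the subunits of the mitochondrial respiratory chain and of ATP synthase, as far as the array measured them. They were chosen by symbol: genes whose symbols begin with Nduf (complex I and its assembly factors), Sdha to Sdhd (complex II), genes beginning with Uqcr (complex III), Cox4, Cox5, Cox6, Cox7 or Cox8 (complex IV), and genes beginning with Atp5 (ATP synthase). This gave 87 of the 17097 genes measured, each read from the probe set of its highest mean over all 20 arrays. They comprised 42 Nduf genes, grouped as 6 core subunits of complex I, 29 other genes and 7 assembly factors, together with 4 genes of complex II, 7 of complex III, 17 of complex IV and 17 of ATP synthase. The level of a gene is a log2 microarray signal, and a difference of 1 is a doubling. The 29 include Ndufs5-ps, which RefSeq lists as a transcribed pseudogene, and Ndufa4 and Ndufa4l2, named below with complex IV. Of the 87 genes, 80 lay above 5.29, the median level of all genes.

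The RNA came from CD44+CD8+ T cells, effector T cells purified from mouse lungs bearing 4T1 tumours, a mammary carcinoma line that grows in the lung. All groups carried the tumour and differed in the treatment. The controls received saline (Saline-CTRL, 5 arrays). The next group received SD-101, a ligand of the innate DNA sensor TLR9 (6 arrays). Another received SD-101 with antibody to the inhibitory receptor PD-1 (SD-101+anti-PD-1, called the double combination, 5 arrays), and the last received both with a-CD4 (the triple combination SD-101+anti-PD-1+a-CD4, 4 arrays). Treatment was intranasal per the labels' protocols, while strain, age, dose and time of sampling are not given in the sources used here. Nothing in the labels ties each array to an animal of its own, and each p-value therefore reflects array-to-array spread that may be technical.

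The purified samples were checked against their label. Of 14 T cell identity markers 12 were measured, and their mean log2 level ranged from 8.42 to 10.36 over the arrays. Cd8a, a chain of the CD8 co-receptor, was between 9.45 and 11.66. The lowest T cell scores were those of replicate 2 of the triple combination (8.42) and replicate 1 of saline (8.88). Markers of other lung cells were also present. The score of 14 endothelial markers was 8.08 to 10.004 with saline, 7.22 to 9.42 with SD-101, 5.57 to 6.58 with the double and 6.66 to 7.97 with the triple combination. That of 11 ciliated airway markers was 3.37 to 4.88, 3.68 to 5.12, 5.66 to 6.59 and 3.64 to 4.88 in the same order. Secretory and alveolar epithelial markers had mean scores of 10.24, 9.92, 11.06 and 9.90, and fibroblast markers 7.35, 7.62, 8.41 and 7.77, of which 4 of 10 rose with the double combination over saline. B and plasma cell markers scored 5.01, 5.96, 5.66 and 5.19, and macrophage and monocyte markers 4.79, 5.53, 4.67 and 4.70. In bulk RNA, fewer cells of a type and less RNA per cell cannot be told apart, and the part of these cell types in the differences below was not tested. Endothelial scores of both combinations lay below every saline array, and ciliated scores of the double combination above every saline array. A fit with the endothelial, ciliated, macrophage and B cell scores as covariates therefore cannot separate these treatments from the scores, and it is given as a description. Its values are given for the medians and for each called gene. In that fit 0 of the 87 genes were called in any comparison. Over all 17097 genes it called 7 for the triple combination against saline, compared with 1218 without covariates.

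Oxidative phosphorylation passes electrons from NADH through complex I, and from succinate through complex II, to ubiquinone, then through complex III and cytochrome c to complex IV, which reduces oxygen. Complexes I, III and IV pump protons, and ATP synthase uses the gradient to make ATP. Complex II is also an enzyme of the citric acid cycle and is the one respiratory complex encoded wholly in the nucleus. In T cells, mitochondrial respiration supports activation, memory and persistence, and its loss is a recognised feature of exhausted CD8+ T cells. The transcription factors NRF1, the ETS factor GABP (NRF2) and YY1 are known regulators of nuclear respiratory genes.

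Most of the genes lay slightly above saline in every treated group, and the differences were small. With SD-101 alone 68 of 87 had a positive difference from saline, against 53.2% of all genes, with a median log2 difference of 0.064 against 0.012 over all genes. With the double combination 73 of 87 were positive, against 56.5% of all genes, and the median was 0.11 against 0.031. With the triple combination 70 of 87 were positive, against 56.7%, and the median was 0.15 against 0.037. The 3 comparisons share their saline arrays. Among genes above the median level, as most respiratory genes are, the medians were 0.022, 0.033 and 0.044. Saline was the lowest of the 4 group means for 54 of the 87 genes (62.1%, against 30.1% of all genes) and the highest for 1, Sdha. The triple combination was the highest for 46 (52.9%, against 32.7% of all genes) and the double combination for 28 (32.2%, against 28.1%).

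Array by array, the median deviation of the 87 genes from their own means was -0.12 to -0.03 in the 5 saline arrays, -0.07 to 0.07 with SD-101, -0.05 to 0.13 with the double combination and 0.06 to 0.12 with the triple combination. Every saline array therefore lay below every array of the triple combination, whereas the SD-101 and double combination arrays overlapped both. Over all genes the same medians were -0.0745 to 0.0021 with saline and -0.0086 to 0.0218 with the triple combination, and these overlapped. Saline replicates 1 and 2 were low over all genes too (-0.0745 and -0.049), against -0.0935 and -0.0492 for the 87 genes. When the scores of endothelial, ciliated, macrophage and B cell markers entered the fit as covariates, the medians against saline became 0.0088, -0.014 and 0.068 for SD-101, the double and the triple combination. Over all genes they were 0.035, 0.085 and 0.062 in the same fit. The respiratory genes' median thus lay below that of all genes for SD-101 and the double combination and close to it for the triple combination.

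**Figure D1:**
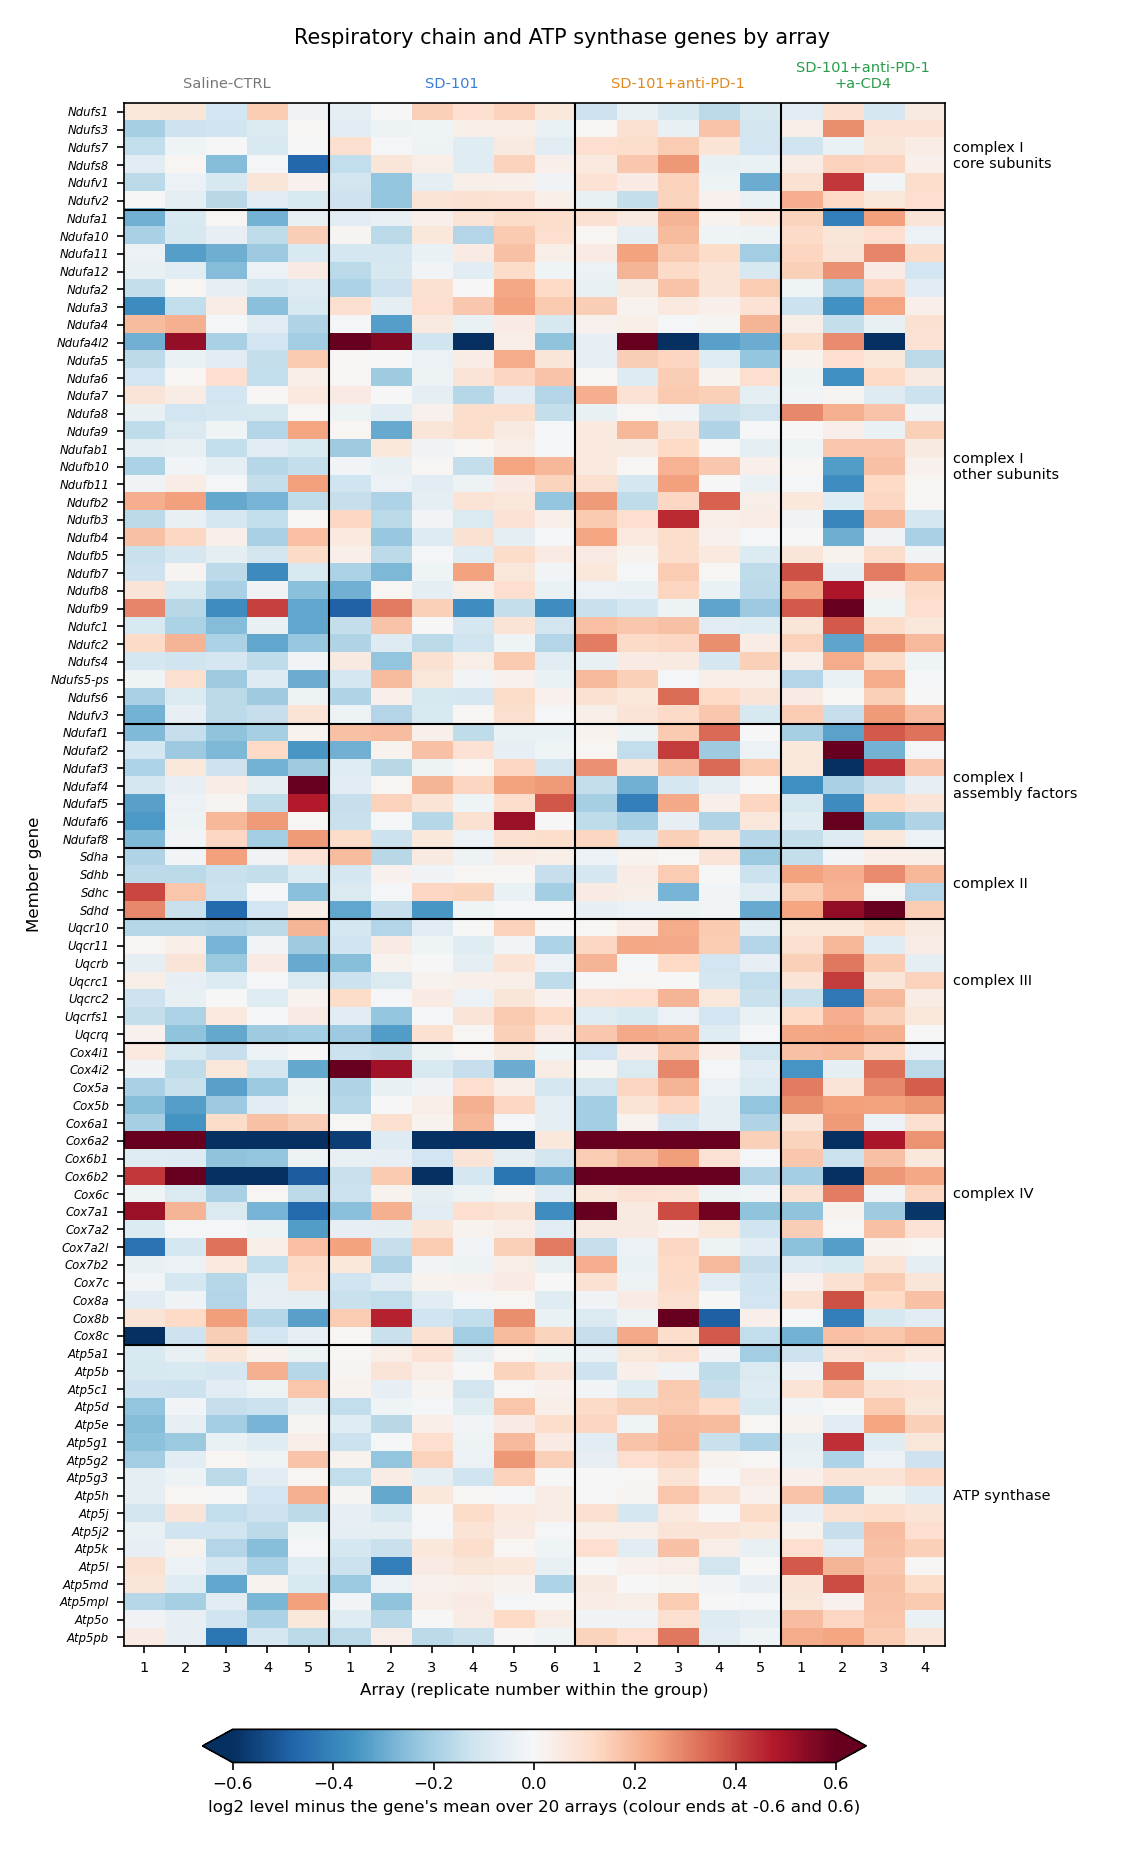
Heat map of the 87 genes (rows, grouped by complex) in the 20 arrays (columns, grouped by treatment). Colour is the log2 level minus the gene's mean over the arrays, with red above and blue below. Saline columns are mostly blue, with array medians of -0.12 to -0.03, and columns of the triple combination mostly red, with medians of 0.06 to 0.12. The darkest rows are those of Cox6a2 and Cox6b2.

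A gene is called here when limma's moderated test gives a Benjamini-Hochberg adjusted p under 0.05 over all genes. Against saline, 0 of 87 were called with SD-101, where 0.333% of all genes were called, 0.298% upward and 0.0351% downward. With the double combination 2 rose and 0 fell, where 5.63% of all genes were called, 3.47% upward and 2.15% downward. With the triple combination 8 rose and 0 fell, where 7.12% of all genes were called, 4.09% upward and 3.03% downward. Counted in either direction, the respiratory genes were called at a share below the background with SD-101 and the double combination. With the triple combination the share was above it, and all 8 calls were upward. Among the 8548 genes above the median level, 543 rose and 402 fell in that comparison. Counted in either direction, their share was larger than that of the 87 genes, and counted upward alone it was smaller. These shares were not tested. Between treated groups, 1 gene rose and 0 fell with the double combination over SD-101 alone, where 4.77% of all genes were called, 3.52% upward and 1.25% downward. Between the triple and the double combination 0 were called, where 2.13% of all genes were, 0.948% upward and 1.18% downward. In these last comparisons 61 and 50 of the 87 differences were positive, against 51.9% and 50.5% of all genes. An unadjusted p under 0.05 was reached by 21, 33 and 7 genes in the comparisons with calls, where 18.6%, 20.8% and 18.3% of all genes did. By limma, 3 genes had an unadjusted p under 0.05 with SD-101 against saline, where 8.27% of all genes did, and 16 between the combinations, where 17.9% of all genes did. A test of any difference among the 4 groups called 4 of 87, Sdhb, Cox5a, Cox5b and Sdhd, against 8.85% of all genes. It called 936 of the 8548 genes above the median level.

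Separation between arrays went in 1 direction. Every array of the triple combination lay above every saline array for 18 of the 87 genes (4.84% of all genes) and below for 0. Of the 8548 genes above the median level, 592 separated upward and 420 downward in this comparison. For the double combination against saline 7 genes separated upward (3.36%), for SD-101 against saline 0 (0.807%), for the double combination against SD-101 2 (4.09%), and for the triple against the double combination 7 (3.92%). Downward, 0 respiratory genes separated in any of the 5 comparisons, against 0.228% of all genes for SD-101, 2.32% for the double and 3.32% for the triple combination against saline, 1.5% for the double combination against SD-101 and 4.53% for the triple against the double combination.

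**Figure D2:**
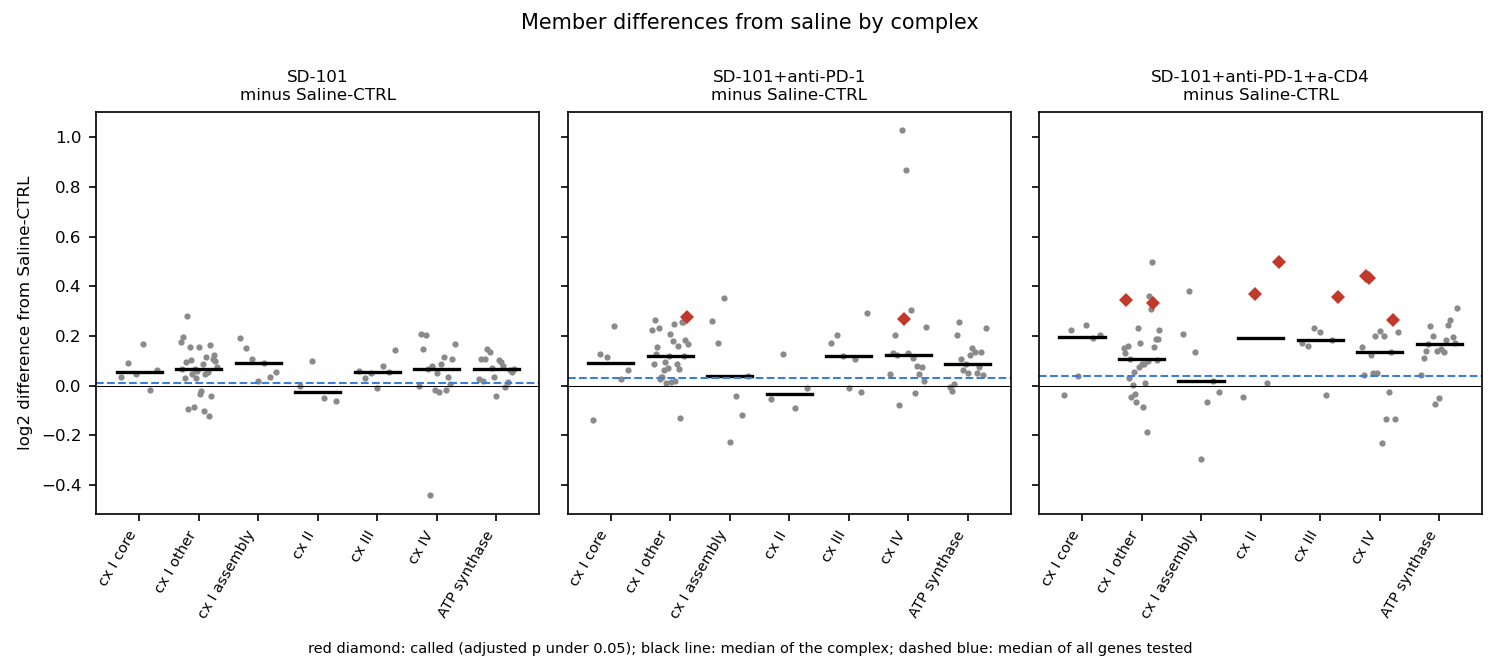
Log2 difference from saline of each gene (points) by complex in the 3 treated groups, with called genes as red diamonds, a black line at the median of each complex and a dashed blue line at the median of all genes. In the triple combination (right) the 8 called genes lie between 0.27 and 0.50, in complexes I to IV. No gene of complex I core, of the assembly factors or of ATP synthase was called.

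The promoters of several genes that were called carry letters known from respiratory gene regulation. RefSeq start-site windows (GRCm38.p6, 250 bases before to 50 after the start, 300 bases in all) were matched for 70 of the 87 genes. The NRF1, ETS (CCGGAAG) and YY1 motifs were searched on both strands, and a gene with several windows counted once. An NRF1 motif was found for 18 of the 70 (25.7%, against 8.37% of all 13605 measured genes with a window), an ETS motif for 17 (24.3% against 15%) and a YY1 motif for 5 (7.14% against 1.29%). The median GC content was 58.3% in the members' windows and 58.5% in those of all measured genes. At least 1 of the 3 motifs was found for 34 of the 70 (48.6%, against 22.4%). Of the 11 called genes, 9 had a window and 6 held at least 1 motif. These 6 are shown so that the letters can be seen beside the expression changes, and were chosen after the values were seen. Each line gives the gene's own strand from 130 bases before the start to 20 after it, with motif matches in capitals.
Sdhb: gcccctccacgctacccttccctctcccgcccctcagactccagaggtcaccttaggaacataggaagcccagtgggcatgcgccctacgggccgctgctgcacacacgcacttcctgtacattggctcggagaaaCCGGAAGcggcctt
Sdhd: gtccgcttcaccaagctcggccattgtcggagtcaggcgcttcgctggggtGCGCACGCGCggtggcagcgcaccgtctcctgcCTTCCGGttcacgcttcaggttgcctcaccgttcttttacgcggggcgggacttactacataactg
Cox8a: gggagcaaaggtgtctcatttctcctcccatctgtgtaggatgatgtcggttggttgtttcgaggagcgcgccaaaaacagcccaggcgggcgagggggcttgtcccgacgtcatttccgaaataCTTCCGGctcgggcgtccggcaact
Cox6b1: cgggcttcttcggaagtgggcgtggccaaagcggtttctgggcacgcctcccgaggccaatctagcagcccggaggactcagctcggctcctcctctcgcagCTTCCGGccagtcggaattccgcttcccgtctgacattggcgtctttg
Ndufs6: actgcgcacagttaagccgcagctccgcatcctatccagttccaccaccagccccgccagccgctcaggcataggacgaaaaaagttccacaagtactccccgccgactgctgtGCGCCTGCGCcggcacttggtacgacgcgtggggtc
Ndufa11: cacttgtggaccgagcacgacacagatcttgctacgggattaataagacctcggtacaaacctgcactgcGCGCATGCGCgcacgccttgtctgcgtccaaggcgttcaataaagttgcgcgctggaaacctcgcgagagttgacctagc

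The Sdhb stretch is chr4:140961141-140961290 on the plus strand, and its ETS match begins at base 7 after the start. The Sdhd stretch, chr9:50603830-50603979 on the minus strand, has an NRF1 match beginning at -79 and an ETS match, on the opposite strand, at -46. Cox8a (chr19:7217597-7217746, minus strand) has an ETS match at -5 on the opposite strand and a second at 33, outside the stretch shown. Cox6b1 (chr7:30626095-30626244, minus strand) has an ETS match at -28 on the opposite strand. Ndufs6 (chr13:73328463-73328612, minus strand) has an NRF1 match at -16 on the opposite strand and a YY1 match at 34, outside the stretch shown, and Ndufa11 (chr17:56717632-56717781, plus strand) has an NRF1 match at -60. The windows of Cox5a, Cox5b and Ndufc1, which were also called, held none of these letters. A match is a description of the sequence and does not show that a factor binds.

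In complex II, succinate dehydrogenase, 2 of 4 subunits rose over saline in the triple combination, where 4.09% of all genes rose. In the other comparisons 0 were called, and with 4 genes the share was not tested. Sdhb, the iron-sulphur subunit that carries electrons from succinate oxidation towards ubiquinone, had log2 levels of 9.84, 9.83, 9.86, 9.85 and 9.91 with saline. With SD-101 it was 9.85 to 10.02 (median 9.99), with the double combination 9.89, 10.04, 10.14, 9.99 and 9.86, and with the triple combination 10.23, 10.21, 10.27 and 10.19. All 4 arrays of the triple combination lay above all 16 others, and the other groups overlapped. The rise over saline was 0.37 (SE 0.068, 1.29-fold, limma adjusted p = 0.00304), from 9.86 ± 0.032 (SD, n = 5) to 10.23 ± 0.036 (SD, n = 4). This call held in all 9 fits that left out 1 array. With covariates the difference was 0.38 (adjusted p = 0.206). The difference between the triple and the double combination was 0.24 (limma adjusted p = 0.0706).

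Sdhd, a membrane anchor of complex II that holds the haem and the quinone site with Sdhc, was measured near the median of all genes. Its levels were 5.55, 5.13, 4.80, 5.15 and 5.30 with saline, 4.92 to 5.25 (median 5.18) with SD-101, 5.21, 5.23, 5.23, 5.25 and 4.96 with the double combination and 5.4995, 5.80, 6.03 and 5.42 with the triple combination. Every array of the triple combination was above every array of the double combination and of SD-101, but saline replicate 1 overlapped it. The rise over saline was 0.50 (SE 0.14, 1.41-fold, adjusted p = 0.0385 by limma). The call was lost without saline replicate 2, 3 or 4, or without replicate 2 or 3 of the triple combination, with adjusted p up to 0.123, and with covariates the difference was 0.19 (adjusted p = 0.758). The other 2 subunits were not called. Sdha, the flavoprotein that oxidises succinate, differed from saline by -0.04 in the triple combination, and Sdhc, the other anchor, by 0.01.

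In complex IV, cytochrome c oxidase, 3 of 17 genes rose over saline in the triple combination, where 4.09% of all genes rose. All of them encode nuclear subunits that surround the catalytic core. Cox5a, which sits on the matrix side, was 10.47, 10.53, 10.34, 10.44 and 10.63 with saline, 10.48 to 10.76 (median 10.63) with SD-101, 10.56, 10.79, 10.87, 10.63 and 10.58 with the double combination and 10.97, 10.74, 10.95 and 11.03 with the triple combination. The saline and triple combination arrays did not overlap. Cox5a rose by 0.44 (SE 0.089, 1.36-fold, adjusted p = 0.00531 by limma), kept its call in all 9 fits that left out 1 array, and rose in all 3 of its probe sets (0.40 to 0.44). With covariates the difference was 0.28 (adjusted p = 0.413).

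Cox5b, a zinc-binding matrix-side subunit, was 10.84, 10.76, 10.87, 11.03 and 11.06 with saline, 10.92 to 11.30 (median 11.11) with SD-101, 10.88, 11.17, 11.22, 11.03 and 10.85 with the double combination and 11.37, 11.33, 11.33 and 11.35 with the triple combination. The 4 arrays of the triple combination lay within 0.04 of each other and above all 16 others. The rise over saline was 0.43 (SE 0.096, 1.35-fold, limma adjusted p = 0.00934), and it was called in all 9 fits that left out 1 array. Of its 4 probe sets, the pair above 10 both rose (0.43 and 0.41), and the pair with mean levels of 4.64 and 2.65 differed by -0.61 and 0.15 without a call, so that the mean of the 4 was not called (0.096, adjusted p = 0.703). With covariates the Cox5b difference was 0.43 (adjusted p = 0.229). Cox8a, the ubiquitous form of the small subunit VIII, was 10.47, 10.52, 10.36, 10.49 and 10.48 with saline and 10.63, 10.92, 10.66 and 10.71 with the triple combination, a rise of 0.27 (SE 0.073, limma adjusted p = 0.0333) in arrays that did not overlap. That call was lost without saline replicate 3 or without replicate 2 or 4 of the triple combination (adjusted p up to 0.110), and with covariates the difference was 0.15 (adjusted p = 0.612).

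Cox6b1, a subunit that faces the intermembrane space where cytochrome c docks, was called in the double combination. It was 10.77, 10.77, 10.60, 10.61 and 10.82 with saline, 10.73 to 10.92 (median 10.79) with SD-101, 10.998, 11.04, 11.09, 10.93 and 10.84 with the double combination and 11.01, 10.72, 11.02 and 10.91 with the triple combination. Saline and the double combination did not overlap, and the rise was 0.27 (SE 0.077, 1.20-fold, adjusted p = 0.0469 by limma). It was not called without saline replicate 1, 3 or 4 or without replicates 1 to 4 of the double combination, each left out singly (adjusted p up to 0.136). In the triple combination the difference from saline was 0.20. The fit with marker scores as covariates gave 0.031 for Cox6b1 in the double combination (adjusted p = 0.989).

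**Figure D3:**
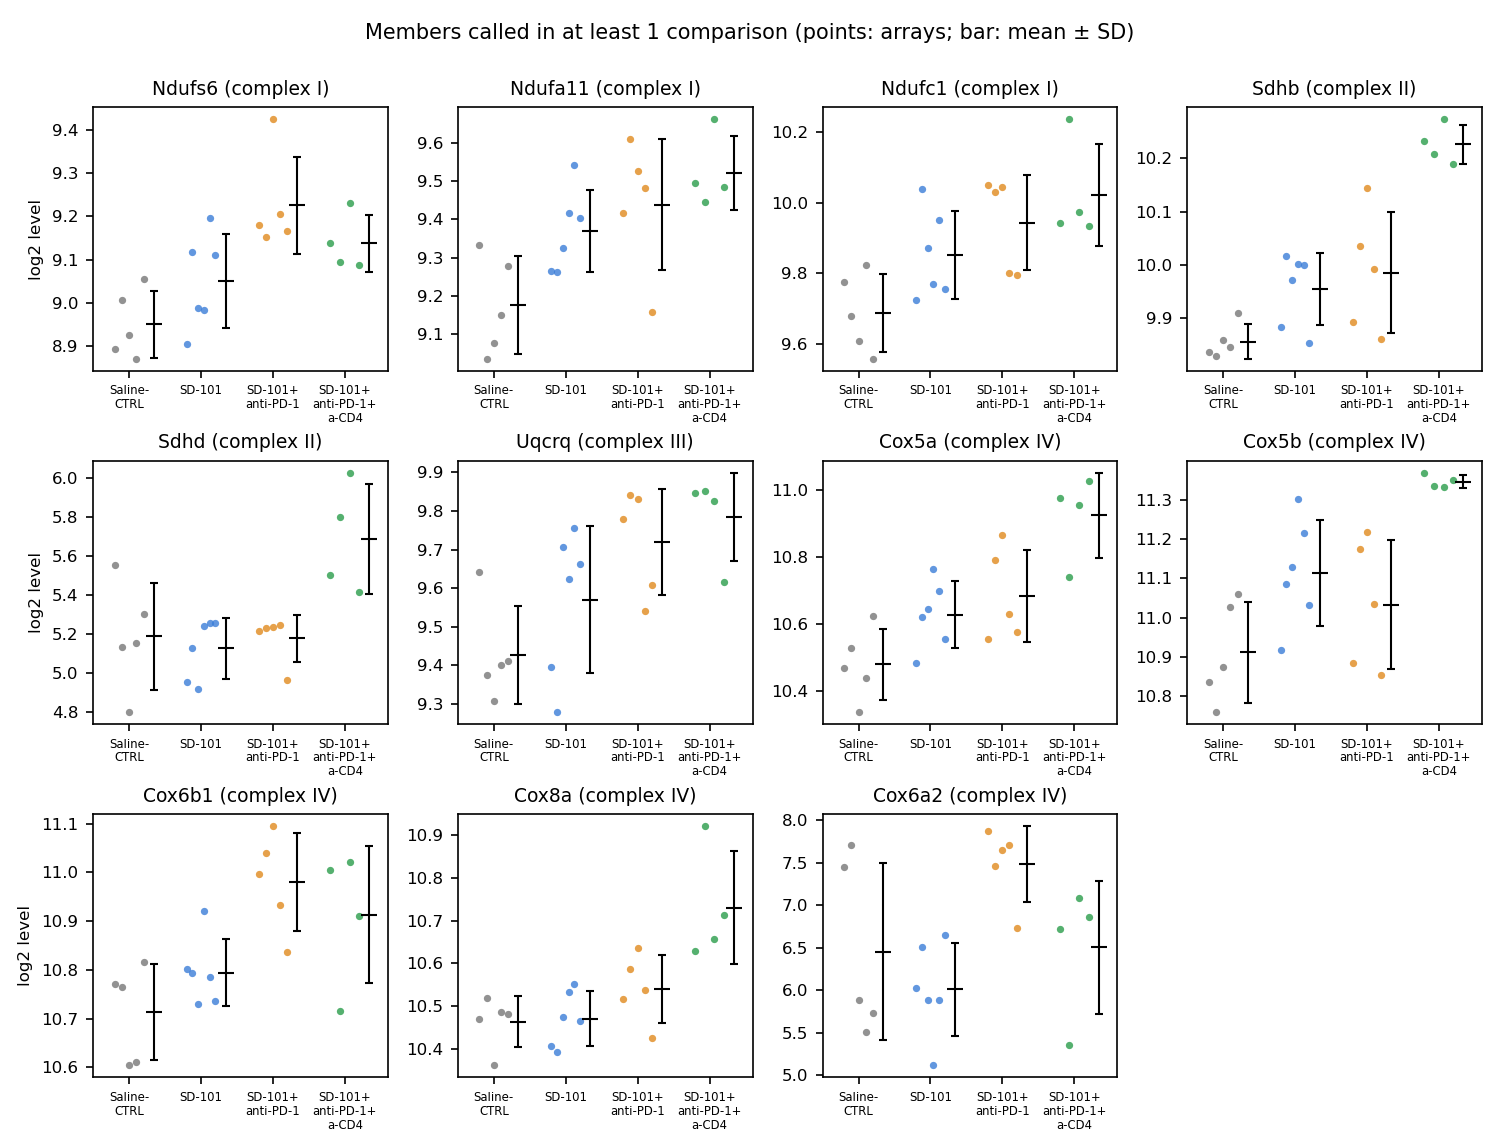
Log2 level of the 11 called genes in every array (points) by treatment group, with the group mean ± SD beside the points; each panel has its own vertical scale, which does not start at 0. The 4 points of the triple combination lie above all others for Sdhb and Cox5b. For Cox6a2, the 5 points of the double combination lie between 6.73 and 7.88 and saline splits into 2 arrays near 7.5 and 3 below 6.

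Of the tissue-restricted isoforms of complex IV, 1 was called. Cox6a2 is the heart and skeletal muscle form of subunit VIa, and Cox6b2 the testis form of subunit VIb. Cox6a2 was 7.45, 7.70, 5.88, 5.51 and 5.73 with saline, 5.12 to 6.65 (median 5.95) with SD-101, 7.88, 7.46, 7.65, 7.70 and 6.73 with the double combination and 6.72, 5.36, 7.08 and 6.86 with the triple combination. The double combination lay above SD-101 in every array, while saline spanned both. The rise over SD-101 was 1.47 (SE 0.41, 2.77-fold, limma adjusted p = 0.0467) and was the only call between these groups among the 87 genes (3.52% of all genes rose). It held without SD-101 replicate 2 or 6 or replicate 5 of the double combination and was lost without any other single array of the 2 groups (adjusted p up to 0.132).

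Cox6b2 was not called. It was 6.19, 6.37, 5.04, 4.85 and 5.26 with saline, 5.15 to 5.92 with SD-101, 6.46, 6.74, 6.72, 6.55 and 5.58 with the double combination and 5.56, 4.79, 6.03 and 6.00 with the triple combination. The difference between the double combination and SD-101 was 0.89 (SE 0.29, adjusted p = 0.0915 by limma). In saline, replicates 1 and 2 were the high arrays for both genes. The same replicates had the highest saline scores for ciliated markers (4.57 and 4.88, against 3.37 to 3.66 in the other 3) and for secretory and alveolar epithelium (10.88 and 11.14, against 9.24 to 10.38), and for fibroblasts (8.01 and 8.40, against 6.08 to 7.18). Arrays of the other groups followed this order only in part. In the triple combination the ciliated scores of replicates 1 to 4 (4.08, 3.64, 4.88 and 4.71) ranked as both genes did. SD-101 replicate 2 had the highest ciliated score and the highest Cox6b2 (5.92) of its group. SD-101 replicates 1 and 2 had ciliated scores of 5.01 and 5.12 with Cox6a2 at 6.03 and 6.51, while SD-101 replicate 6, at 3.96, had the highest Cox6a2 of its group. Within the double combination, replicate 2 had the lowest ciliated score (5.66) and the highest Cox6b2. Replicate 5 of that group, with the next lowest score (5.87), had the lowest Cox6a2 and Cox6b2. The double combination had the highest ciliated scores of all groups (5.66 to 6.59), and in that comparison with SD-101 10 of 11 ciliated markers rose. With the 4 marker scores as covariates the Cox6a2 difference turned to -1.21 (adjusted p = 0.999).

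Marker lists of muscle and of spermatogenic cells were low. The mean of 10 skeletal muscle markers was 2.995 to 3.64 over all arrays and that of 11 cardiac muscle markers 3.13 to 3.91. Of these, 2 skeletal markers (Acta1, by 1.40, and Ckm, by 0.56) and 1 cardiac marker (Myl7, by 1.13) rose with the double combination over SD-101, to mean levels of 5.36, 3.57 and 4.81. Scores of 6 spermatogenic markers lay between 2.50 and 3.14. A list of 7 measured plasmacytoid dendritic cell markers had higher mean scores. They were 5.34 with saline, 5.63 with SD-101, 5.13 with the double and 5.30 with the triple combination. The part of any of these cell types in the Cox6a2 and Cox6b2 levels was not tested.

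**Figure D4:**
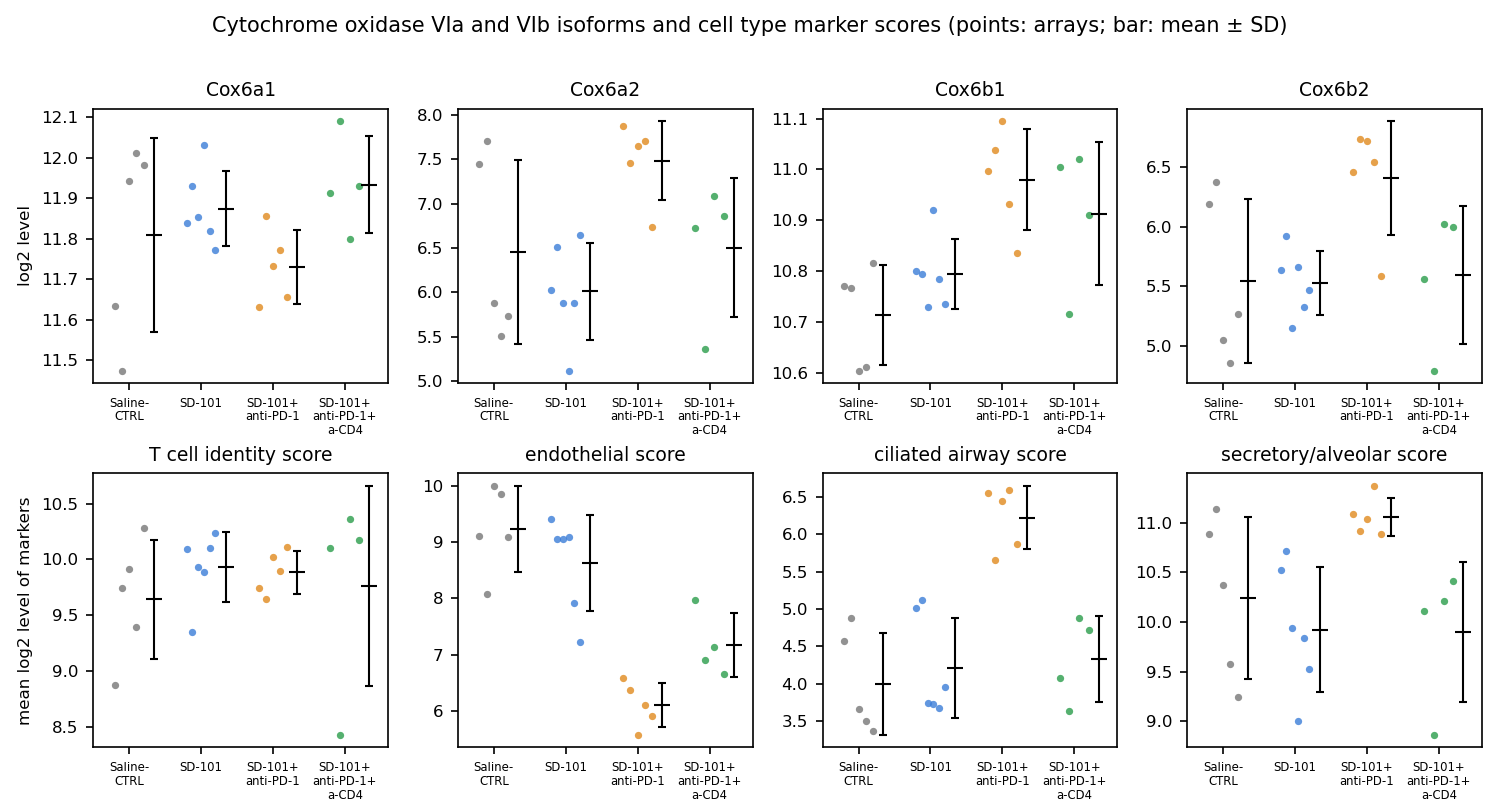
Log2 levels of the ubiquitous (Cox6a1, Cox6b1) and tissue-restricted (Cox6a2, Cox6b2) isoforms in every array (upper row) above the scores of T cell, endothelial, ciliated airway and secretory or alveolar markers in the same arrays (lower row), with group means ± SD; vertical scales differ and do not start at 0. Cox6a2 and Cox6b2 are high in replicates 1 and 2 of saline and in replicates 1 to 4 of the double combination. In the triple combination both genes rank as the ciliated score does. SD-101 replicate 2 is highest of its group for the ciliated score (5.12) and for Cox6b2. The ciliated score of the double combination is lowest in replicate 2. SD-101 replicates 1 and 2, with scores of 5.01 and 5.12, have Cox6a2 at 6.03 and 6.51.

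The other isoform partners were not called. Cox6a1, the ubiquitous partner of Cox6a2 and was 11.81 ± 0.24 (SD, n = 5) with saline and 11.93 ± 0.12 (SD, n = 4) with the triple combination, and within saline it was lowest in replicates 1 and 2. Cox4i1, the common form of the regulatory subunit IV, differed from saline by 0.15 in the triple combination, and Cox4i2, its hypoxia-linked lung form, by 0.04. Cox7a2, the liver-type subunit VIIa, differed by 0.20, its muscle-type partner Cox7a1 by -0.23, and Cox7a2l, a supercomplex factor, by -0.14. Cox8b and Cox8c, the muscle and testis forms of subunit VIII, differed by -0.14 and 0.22, and Cox7b2 by -0.03. Means over all arrays of Cox4i2, Cox7a1, Cox7b2, Cox8b and Cox8c were 2.51 to 3.47, below the median gene. Ndufa4, since reassigned from complex I to complex IV, differed by -0.04, and Ndufa4l2, its hypoxia-induced relative, by 0.0032 at a mean level of 3.72.

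Complex I, the NADH dehydrogenase, gave 3 called genes of 42, all accessory subunits. Of these, 2 rose over saline in the triple and 1 in the double combination, where 4.09% and 3.47% of all genes rose. Ndufa11, a membrane-arm subunit, was 9.33, 9.04, 9.08, 9.15 and 9.28 with saline, 9.26 to 9.54 (median 9.36) with SD-101, 9.42, 9.61, 9.53, 9.48 and 9.16 with the double combination and 9.50, 9.44, 9.66 and 9.48 with the triple combination. Arrays of the triple combination lay above all saline arrays, and the rise was 0.35 (SE 0.096, 1.27-fold, limma adjusted p = 0.0340). Ndufc1, another membrane-arm subunit, was 9.77, 9.68, 9.61, 9.82 and 9.56 with saline and 9.94, 10.24, 9.97 and 9.93 with the triple combination, again without overlap. It rose by 0.33 (SE 0.095, limma adjusted p = 0.0385), and its second probe set by 0.29. The Ndufa11 call held without saline replicate 1 or 5 or replicate 2 of the triple combination, and the Ndufc1 call without saline replicate 1 or 4. Both were lost without any other single array of the 2 groups (adjusted p up to 0.0990 and 0.129). With covariates the differences were 0.22 and 0.35 (adjusted p = 0.580 and 0.398).

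Ndufs6, an accessory subunit of the peripheral arm, rose in the double combination. It was 8.89, 9.01, 8.92, 8.87 and 9.06 with saline, 8.91 to 9.20 (median 9.05) with SD-101, 9.18, 9.15, 9.42, 9.20 and 9.17 with the double combination and 9.14, 9.10, 9.23 and 9.09 with the triple combination. Both combinations lay above saline in every array. The rise was 0.27 with the double combination (SE 0.075, 1.21-fold, adjusted p = 0.0349 by limma), against a difference of 0.19 without a call with the triple combination. The call was lost without saline replicate 1, 3 or 4 or replicate 1, 3 or 4 of the double combination (adjusted p up to 0.107), and with covariates the difference was 0.080 (adjusted p = 0.962).

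The remaining complex I genes were not called. Of the 6 core subunits, which carry the flavin and iron-sulphur clusters, 5 had positive differences from saline in the triple combination (median 0.20). For 3 of them every array of that group lay above every saline array, as it did for 4.84% of all genes. Ndufv1, the NADH-binding subunit, differed from saline by -0.02, 0.03 and 0.19 in the SD-101, double and triple groups, and Ndufb8, often used as a marker of assembled complex I, by 0.06, 0.07 and 0.31 (adjusted p = 0.0768 in the triple combination by limma). Ndufa1, a membrane-arm subunit, differed by 0.18, 0.23 and 0.15. Ndufb9 differed most of the 87 genes in the positive direction between the triple and the double combination, by 0.63 (SE 0.25, adjusted p = 0.182). Its levels with the triple combination were 10.14, 11.20, 9.74 and 9.87, and the highest was replicate 2, the array of lowest T cell score. The 7 assembly factors build complex I and are not part of it. Their median difference from saline was 0.019 in the triple combination, 4 of 7 were positive, and 0 were called.

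Complex III, which passes electrons from ubiquinol to cytochrome c, had 1 called gene of 7, in the triple combination against saline, where 4.09% of all genes rose. Uqcrq, its small ubiquinone-binding subunit, was 9.64, 9.37, 9.31, 9.40 and 9.41 with saline, 9.28 to 9.76 (median 9.64) with SD-101, 9.78, 9.84, 9.83, 9.54 and 9.61 with the double combination and 9.85, 9.85, 9.83 and 9.61 with the triple combination. Replicate 1 of saline and replicate 4 of the triple combination overlapped. The rise was 0.36 (SE 0.11, 1.28-fold, limma adjusted p = 0.0485) and was kept only without 1 of these 2 arrays among the 9 fits that left out 1 array (adjusted p up to 0.125). With covariates the difference was 0.17 (adjusted p = 0.668). Its 3 other probe sets had mean levels of 2.85 to 3.26 and differed by -0.40 to 0.23 without a call.

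Uqcrc1, a core subunit facing the matrix, and Uqcrfs1, the Rieske iron-sulphur protein, were not called. Uqcrc1 was 10.03, 9.95, 9.91, 9.99 and 9.91 with saline, 9.84 to 10.03 with SD-101, 9.99, 10.0015, 9.9986, 9.90 and 9.85 with the double combination and 10.08, 10.42, 10.07 and 10.13 with the triple combination, which lay above all other arrays. The differences of the triple combination from saline and from the double combination were 0.22 and 0.23 (limma adjusted p = 0.112 and 0.136). For Uqcrfs1 they were 0.18 and 0.21 (adjusted p = 0.210 and 0.186). Uqcrc2, the other core subunit, differed from saline by -0.04, and Uqcrb by 0.23.

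None of the 17 ATP synthase genes was called in any comparison. In the triple combination 15 were above saline, with a median of 0.17, and 4 separated upward from saline without overlap (4.84% of all genes). By limma, 0, 4 and 8 of the 17 had an unadjusted p under 0.05 against saline in the SD-101, double and triple groups, where 8.27%, 18.6% and 20.8% of all genes did. Atp5pb, a subunit of the peripheral stalk, was 9.69, 9.59, 9.21, 9.54 and 9.48 with saline and 9.86, 9.88, 9.79 and 9.72 with the triple combination. These arrays did not overlap, and the difference was 0.31 (SE 0.097, limma adjusted p = 0.0595). Atp5e, the epsilon subunit of the rotor stalk, differed by 0.26 in the double and 0.24 in the triple combination (adjusted p = 0.0822 and 0.116), and Atp5md, a small membrane subunit, by 0.077 and 0.26 (adjusted p = 0.711 and 0.0851). Atp5a1 and Atp5b, the alpha and beta subunits of the catalytic head, differed from saline by 0.04 and 0.11 in the triple combination. Atp5g3, of the rotor ring, differed by 0.14, and Atp5l by 0.25. Atpif1, the inhibitor of ATP synthase and no member by symbol, differed by 0.68 (SE 0.23, adjusted p = 0.0874).

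By complex, the median differences from saline in the triple combination were 0.20 for core and 0.11 for other subunits of complex I, 0.19 for complex II, 0.18 for complex III, 0.13 for complex IV and 0.17 for ATP synthase, against 0.019 for the assembly factors. In the double combination they were 0.089, 0.12, -0.032, 0.12, 0.12 and 0.087 for the same complexes, with 0.038 for the assembly factors. With covariates the medians in the triple combination were 0.055, 0.029, 0.11, 0.12, 0.11 and 0.052, with -0.059 for the assembly factors. In the double combination they were -0.040, -0.0092, -0.064, 0.091, -0.017 and -0.017, with -0.18 for the assembly factors, so that all but that of complex III were negative. These medians were not tested. Between the triple and the double combination, which share the 5 arrays of the latter with the comparison above, the median of complex II was 0.17, those of the other complexes were -0.031 to 0.099, and that of the assembly factors was -0.053. Over other settings the median of the other complex I genes ranged up to 0.064 and that of complex IV up to 0.11, with the opposite sign in 2 and 3 of 4 settings.

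Genes of mitochondrial function outside the 87 were read from lists chosen with earlier results of these data known. In the mitochondrial ribosome, which translates the mitochondrially encoded subunits, 4 of 73 genes rose with the double and 8 with the triple combination, 0 fell, and 0 were called with SD-101 (8 had an unadjusted p under 0.05). Of all genes, 3.47% and 4.09% rose with the double and the triple combination, and 8.27% had an unadjusted p under 0.05 with SD-101. Mrpl40 rose by 0.34 and 0.48 (limma adjusted p = 0.0254 and 0.00368), Mrpl41 by 0.36 and Mrps36 by 0.39 in the triple combination. Of 15 genes of pyruvate dehydrogenase and the citric acid cycle, 2 rose with the double and 1 with the triple combination, against the same 3.47% and 4.09%. Idh3a, the catalytic subunit of NAD-dependent isocitrate dehydrogenase, rose by 0.24 and 0.60 over saline and by 0.36 from the double to the triple combination (limma adjusted p = 0.0378, 0.000300 and 0.0145). Ogdh, of the 2-oxoglutarate dehydrogenase complex, rose by 0.43 with the double combination, and Suclg1, of succinyl-CoA ligase, was not called.

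Of 39 assembly factors outside the symbol rule, 3 rose over saline in the triple combination, where 4.09% of all genes rose, and 0 were called in the other comparisons. They were Cox17, the copper chaperone of complex IV (0.51, adjusted p = 0.00842 by limma), Cox15, a haem A synthase (0.39), and Sdhaf2, which flavinates Sdha (0.33). Among 12 regulators of mitochondrial biogenesis 0 rose and 1 fell in the triple combination against saline, where 3.03% of all genes fell. This was Polg, the mitochondrial DNA polymerase, which fell by 0.52 (limma adjusted p = 0.0111). Tfb2m and Nrf1 itself were not called. The cytochromes Cycs, Cyc1 and Cyct were not called in any comparison.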

How the data were processed

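Expression was measured on 20 Affymetrix arrays in 4 groups. The authors deposited log2 values per probe set, and the submitters' processing notes name affy, RMA, limma and the build mm8, with neither role nor version. The deposited log2 values (1.78 to 13.44, array medians 3.52 to 3.75) were used without further normalization and with no filter on level. Arrays carry no read depth, and their number limits the precision.

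Of 45141 probe sets, 28898 had exactly 1 gene symbol, 551 several and 15692 none. RefSeq matched 28689 by Entrez identifier and changed 0 symbols. The 87 genes had 148 probe sets, and 41 genes had more than 1.

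A model of group means over the 20 arrays was fitted in limma 3.58.1 (R 4.3.3). Moderated 2-sided tests were adjusted by Benjamini-Hochberg over all 17097 genes, and "rose" and "fell" are used for an adjusted p under 0.05. The fit was tested on simulated data. A score is the mean log2 level of a marker list. Members, lists, motifs and naming rules were chosen with earlier results of these data known. Named were all called members, the 3 of smallest 4-group p and those of extreme level or range per complex, fixed isoforms and subunits, and up to 3 genes per pathway list. The mitochondrially encoded subunits and genes without a listed probe set were not analysed here. Other settings tried were the mean of all probe sets, 2 scalings, a filter on level, a mean-variance trend, array weights, the replicate block, marker scores as covariates, fits of 2 groups, leaving out each array, and, added after seeing the data, a fit without the pair of arrays with the weakest T cell score. Promoters were RefSeq windows of GRCm38.p6.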

Additional observations from a re-analysis of the deposited data

Results flagged for a closer look

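Of 160 sets of arrays, 4 for each of 40 named genes, 15 held an array that stood apart from the rest of its group by Dixon's criterion, which chance alone meets in about 1 of 20. In the double combination, replicate 3 stood high for Ndufs6 (9.42). Replicate 5 of that group stood low for Sdhd (4.96), Cox6b2 (5.58) and Cox7a2 (10.83) and high for Ndufa4 (10.78). In the same group replicate 4 stood low for Atp5l (10.24) and replicate 3 high for Cox4i2 (3.31). In the triple combination, replicate 2, the array of lowest T cell score, stood high for Ndufc1 (10.24) and Atp5b (11.36), replicate 4 stood low for Uqcrq (9.61) and replicate 1 low for Cox8c (3.19). Among SD-101 arrays, replicate 4 stood high for Cox6b1 (10.92). With saline, replicate 4 stood high for Atp5b (11.25), replicate 2 high for Ndufa4l2 (4.25) and replicate 5 low for Cox7a2 (10.62).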

How the results depend on the processing

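With SD-101 against saline, 0 genes were called under every setting run. The triple combination against saline (8 called) gave 5 after quantile normalization, 3 with the replicate block, 0 with 4 marker scores as covariates, 3 when only those groups were fitted, and 3 to 9 when 1 array was left out, the fewest without saline replicate 3. The double combination against saline (2 called) gave 1 with the mean of all probe sets, 0 with arrays centred, 1 after quantile normalization, 9 with array weights, 1 with the replicate block, 0 with covariates, 0 in the fit of 2 groups and 0 to 4 with 1 array left out. The double combination against SD-101 (1 called) gave 0 among genes above the median level, 7 with array weights, 0 with covariates, 3 without the 2 arrays of lowest T cell score, 3 in the fit of 2 groups and 0 to 2 with 1 array left out. The triple against the double combination (0 called) gave 5 with array weights and 0 to 1 with 1 array left out. The 4-group test (4 called) gave 2 after quantile normalization, 17 with array weights, 1 with the replicate block, 0 with covariates and 1 to 5 with 1 array left out. With covariates, 7 of all genes were called in the triple combination against saline, compared with 1218 without them. Cox6a2 in the double combination against SD-101 turned to -1.21 with covariates; the cause was not tested. The labels give same-numbered arrays only a shared number. Of the 27 same-numbered pairs, 11 correlated above 0.1 (-0.50 to 0.60). Differently numbered pairs were not compared, so whether same-numbered arrays were paired or shared a batch was not tested. The replicate block kept the calls of Sdhb, Cox5a and Cox5b. Sdhb and Cox5a kept their calls in 9 of 10 other settings and Cox5b in 8, with adjusted p of 0.00175 to 0.206, 0.000744 to 0.413 and 0.00455 to 0.703.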

Other observations

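The promoter motifs were spread unevenly over the complexes. An NRF1 motif lay in the window of 6 of 15 ATP synthase genes, 6 of 25 accessory subunits of complex I and 2 of 3 complex II genes, compared with 1 of 12 complex IV genes and 0 of 5 core subunits of complex I. An ETS motif lay in 6 of 15 ATP synthase genes and 1 of 25 accessory subunits of complex I. Ndufb4 and Sdha each held 3 NRF1 matches, the most of any member, and neither was called in any comparison. The genes with windows are few per complex, and these shares were not tested.

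Without saline replicate 3, 3 genes were called with the triple combination against saline, the fewest of the 9 fits that left out 1 array. Of the 8 genes called in that comparison with all arrays, Sdhd (4.80), Cox5a (10.34), Cox8a (10.36) and Uqcrq (9.31) had their lowest saline level in that array. Sdhb, Cox5b, Ndufa11 and Ndufc1 had it in another. Saline replicate 3 also had the highest saline endothelial score (10.004), and the part of that score in these calls was not tested.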
